A study of Mus musculus with 8 samples.

Results

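Bone marrow (BM) of healthy young Gfi1 KO mice was compared with that of healthy young Gfi1 KD mice, at an age at which the labels give no AML for any of them. The comparison used the libraries labelled young KO (2 mice) and young KD (2 mice), chosen by their labels alone, which are 4 of the 8 libraries of the series. RNA was taken from whole BM of each mouse and sequenced, and the reads on each gene were counted. The other 4 libraries are from 2 KD mice labelled sick and 2 KO mice labelled old, and they were used only to follow single genes into mice outside the comparison.

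The young KO mice were 48 and 44 days old and the young KD mice 39 and 42 days old, so the ages did not overlap and age and genotype cannot be told apart. The sick KD mice were 187 and 78 days old and the old KO mice 158 and 101 days old. The labels give AML as the status of the sick KD mice and no AML for the old KO mice, whereas the study describes the disease of sick KD mice as myeloproliferative. They give the strain C57Bl6 for every mouse. A KO mouse makes no Gfi1 protein. A KD mouse carries a human GFI1 cDNA knocked into the Gfi1 locus, and a floxed neo cassette that runs opposite to it keeps its expression low. Both genotypes are therefore altered at Gfi1, and no mouse with normal Gfi1 is among the 8. Each library is a separate animal.

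Gfi1 is a zinc finger repressor of blood cells that binds DNA at sites with an AATC core and silences genes through the demethylase LSD1 (Kdm1a), the CoREST proteins and histone deacetylases. It is best known for its part in neutrophil development, in which azurophil granule genes are used first, at the promyelocyte stage, and specific granule genes later. Without it, neutrophils are few and monocytic cells accumulate.

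The young libraries held between 32037260 and 42679114 counts on genes, and 14839 of 41214 genes passed the filter on low counts and were tested. In the BM as a whole the genotypes were hard to tell apart. Over 14030 genes with at least 10 counts in every young library, the median absolute log2 ratio was 0.131 between the KD mice and 0.140 between the KO mice. Between a KO and a KD mouse it ranged from 0.106 to 0.137, so mice of the same label were no more alike than mice of different labels. KD 1 was closest to KO 2 and KD 2 was closest to KO 1. Reads on Xist were abundant in all 4 mice, and 4 Y-linked genes together had between 8 and 17 counts in a library, so no difference in sex accompanies the genotypes.

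Only 6 genes passed the threshold, an adjusted p under 0.05 in edgeR's quasi-likelihood test over the 4 libraries, which is 0.0404% of the genes tested. Galnt9, Lars2 and Mir6236 rose in KO, and A430072P03Rik, Atp10d and Hist1h4m fell. With an unadjusted p under 0.05 counted instead, 1.14% lay higher in KO and 1.52% lower, together 2.66%, which is below the nominal 5% of the test. DESeq2 called 29 genes, including these 6, and the edgeR fit without KO 1 called 2, Galnt9 and A430072P03Rik. Among the 9238 genes with a mean above 10 CPM (counts scaled to the size of each library, after TMM scaling of library sizes), 98.7% had a 95% interval of the log2 fold change that lay wholly between -1 and 1.

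**Figure D1:**
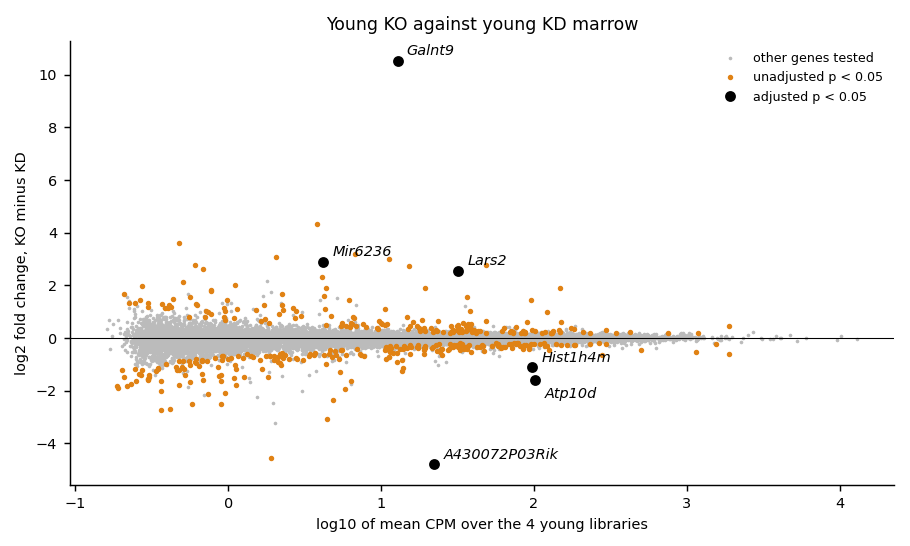
Log2 fold change of each gene tested (KO minus KD, vertical axis) against the log10 of its mean CPM over the 4 young libraries (horizontal axis). The 6 genes with an adjusted p under 0.05 are named, from Galnt9 at 10.52 to A430072P03Rik at -4.80, and most other genes lie close to 0.

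Galnt9 encodes a glycosyltransferase that starts mucin-type O-glycans and is known mainly from the brain. It lies on chromosome 5 on GRCm38, chr5:110544355-110621380 on the plus strand. Its reads were 1085 and 832 in the KO libraries, but 1 and 0 in the KD libraries. In CPM it was 25.3 and 26.1 in KO and 0.0256 and 0 in KD. The ratio of the groups was 1827, with a 95% interval of 327 to 72184 that covers counting error only. The fitted log2 fold change was 10.52, with a standard error (SE) of 0.32 (adjusted p = 0.000738, edgeR). This SE was derived from the test statistic, and with 1 read in the KD libraries it does not bound the size of the difference. KO BM thus held Galnt9 reads at a steady level in both mice, while KD BM held almost none. Of the other members of its enzyme family, 11 were tested and none passed, with log2 fold changes between -0.18 for Galnt18 and 0.31 for Galnt3. Galnt1 was 205 and 195 CPM in KO and 198 and 205 CPM in KD, and Galnt2 was 5.26 and 4.89 CPM against 5.37 and 4.78 CPM.

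The 250 bases before the start of Galnt9, from RefSeq on GRCm38.p6, are shown because this gene separates the genotypes most sharply. Capitals would mark the Gfi1 core AATC on either strand (AATC or GATT), and there is no match in this window. Of all 32851 promoter windows of this length, 69.0% hold a match.
Galnt9, chr5:110544105-110544354, plus strand: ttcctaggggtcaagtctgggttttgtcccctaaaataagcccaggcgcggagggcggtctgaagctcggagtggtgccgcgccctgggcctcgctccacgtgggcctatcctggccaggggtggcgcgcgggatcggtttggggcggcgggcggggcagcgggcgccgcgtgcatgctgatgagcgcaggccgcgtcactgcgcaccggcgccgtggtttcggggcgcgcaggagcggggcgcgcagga

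A430072P03Rik is a noncoding transcript on chr5:107725157-107728801, on the plus strand, and it overlaps the 5′ end of Gfi1, which runs the other way on chr5:107716657-107726036. It was 40.9 and 45.4 CPM in the KD libraries and 1.77 and 1.29 CPM in the KO libraries, a log2 fold change of -4.80 (SE 0.17, adjusted p = 0.000831, edgeR). Reads counted on this entry were thus abundant in both KD mice and scarce in both KO mice. Gfi1 itself was 14.3 and 14.8 CPM in KO and 6.37 and 7.23 CPM in KD. Its groups did not overlap, but its log2 fold change of 1.10 did not pass (SE 0.13, adjusted p = 0.324, edgeR), whereas it passed in DESeq2 (adjusted p = 1.12e-05). The transcripts of the 2 genes share 58 stretches of 25 bases on opposite strands. The library kit keeps the strand, but the sources used here do not say whether the counting did, so reads of the shared stretch cannot be assigned with certainty.

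The files hold no separate entry for the knocked-in human cDNA. Mouse Gfi1 counts are therefore no measure of the GFI1 made by the KD allele, and each direction given here rests on the labels. The 250 bases before the RefSeq start of Gfi1 are shown because they lie inside the body of A430072P03Rik. Capitals mark the single GATT or AATC match.
Gfi1, chr5:107725806-107726055, minus strand: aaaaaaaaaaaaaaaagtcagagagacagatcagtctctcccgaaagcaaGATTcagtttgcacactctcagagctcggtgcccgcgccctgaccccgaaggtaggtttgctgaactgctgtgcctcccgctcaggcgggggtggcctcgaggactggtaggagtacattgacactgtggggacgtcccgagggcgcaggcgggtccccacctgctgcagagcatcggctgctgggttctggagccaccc

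Atp10d, a lipid-transporting P4-type ATPase, lies on the same chromosome at chr5:72203329-72298775 and is annotated as a polymorphic pseudogene, a gene that is disrupted in the reference strain and intact in others. It was 158 and 150 CPM in KD and 48.8 and 53.01 CPM in KO. With means of 154 ± 6.18 CPM (SD, n = 2) and 50.9 ± 2.998 CPM (SD, n = 2), the groups lay far apart. The log2 fold change was -1.60 (SE 0.08, adjusted p = 0.00472, edgeR).

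Lars2, the mitochondrial leucyl-tRNA synthetase, lies on chr9:123366927-123462666. It was 59.3 and 50.3 CPM in KO and 8.67 and 10.03 CPM in KD, a log2 fold change of 2.55 (SE 0.13, adjusted p = 0.00472, edgeR). The rise in Lars2 counts was not shared by the genes of the enzymes that charge the other mitochondrial tRNAs. The other 16 mitochondrial aminoacyl-tRNA synthetases were all tested and none passed, with log2 fold changes between -0.10 and 0.16. Aars2, for alanine, was 19.2 and 16.8 CPM in KO and 16.9 and 17.4 CPM in KD. Cars2, for cysteine, was 30.7 and 29.9 CPM against 31.1 and 27.8 CPM. Of the 13 protein-coding genes of the mitochondrial genome, 7 were tested and none passed, with log2 fold changes between -0.02 and 0.17.

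Mir6236 was the remaining gene that rose. It is an annotated microRNA gene at chr9:110281287-110281409. It was 7.90 and 6.93 CPM in KO and 1.05 and 0.931 CPM in KD, a log2 fold change of 2.90 (SE 0.21, adjusted p = 0.0284, edgeR). The call was lost whichever mouse was left out (adjusted p between 0.0958 and 0.283, edgeR) and with the GC and length trend removed (0.0524). The libraries were made from poly(A) RNA, so these reads are not a measure of the mature microRNA. Its transcript shares no stretch of 25 bases with any annotated Lars2 transcript. This does not show whether both entries drew reads from the same source, which was not tested. The mature sequence is shown, with the seed (bases 2 to 8) in capitals, to name the product the annotation assigns to this locus.
mmu-miR-6236, chr9:110281353-110281371, plus strand: gCCGUCGCcggcagucagg

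Hist1h4m, a gene for histone H4, lies on chr13:21811746-21812147. It was 140 and 126 CPM in KD and 63.7 and 60.5 CPM in KO, a log2 fold change of -1.10 (SE 0.09, adjusted p = 0.0334, edgeR). The call was lost whichever mouse was left out (adjusted p between 0.0590 and 0.320, edgeR). The fall was not shared by its closest copy. Hist1h4n was 189 and 177 CPM in KO and 129 and 110 CPM in KD, a log2 fold change of 0.61 that did not pass (SE 0.10, adjusted p = 0.694, edgeR). The other 9 histone H4 genes, a list added after its values were seen, had log2 fold changes between -0.02 and 0.08, and none passed.

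The 2 genes are near-identical copies. Their transcripts, compared from the first base over 402 bases, are the same at 401 and differ by G36A, in which Hist1h4m has the first base and Hist1h4n the second, counted from the transcript start. The difference lies 3 bases before the start codon. The 250 bases before the 2 genes, set 1 base apart, are the same at all 249 positions compared. The 25 bases around the difference are shown because few other bases tell reads of the 2 genes apart, with the differing base in capitals.
Hist1h4m: agttttgtcttcGtcatgtctggtc
Hist1h4n: agttttgtcttcAtcatgtctggtc

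Added together, the pair did not separate the genotypes. The sum was 269 and 237 CPM in KD and 252 and 237 CPM in KO. What differed was how the reads fell between the copies. Hist1h4m took 52.0% and 53.4% of the pair's reads in young KD mice, but 25.2% and 25.5% in young KO mice. In the mice outside the comparison the share was 51.9% and 52.9% in sick KD. In old KO it was 51.8% in mouse 2 and 0.249% in mouse 1, where 18 reads fell on Hist1h4m and 7204 on Hist1h4n. The 8 shares thus fell near 3 values and did not follow the genotype in the old KO mice. How the counting treated reads that fit both copies is not given in the sources used here, and its part in the result was not tested.

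**Figure D2:**
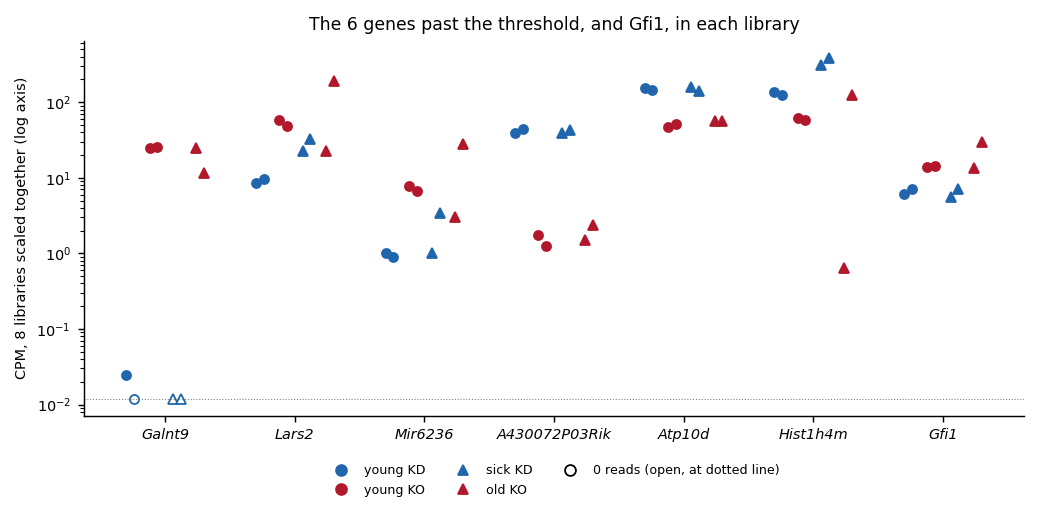
CPM of the 6 genes with an adjusted p under 0.05 in young BM, and of Gfi1, in each of the 8 libraries scaled together (log axis, open symbols at the dotted line had 0 reads). Galnt9, A430072P03Rik, Atp10d and Gfi1 separate every KO from every KD library, whereas in Lars2 and Mir6236 old KO 1 lies among the sick KD mice, and in Hist1h4m old KO 2 lies level with young KD 2.

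The mice outside the comparison gave these genes a further reading, in CPM scaled over all 8 libraries. Galnt9 was 24.8 and 11.5 CPM in old KO and 0 in both sick KD mice. A430072P03Rik was 1.52 and 2.35 CPM in old KO and 39.4 and 42.6 CPM in sick KD. Atp10d was 56.8 and 56.7 CPM in old KO and 160 and 140 CPM in sick KD. These 3 genes, all on chromosome 5, thus stood on the same side in the mice that the young comparison did not use. Gfi1 did as well, with 13.3 and 29.7 CPM in old KO and 5.49 and 7.15 CPM in sick KD.

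Lars2 and Mir6236 did not separate the older mice. Lars2 was 22.7 and 189 CPM in old KO and 22.5 and 33.0 CPM in sick KD, and Mir6236 was 3.07 and 27.6 CPM against 1.01 and 3.45 CPM. Old KO mouse 2 had the highest level of both genes among the 8 libraries. Next in both came young KO 1 and young KO 2, with 57.9 and 48.9 CPM for Lars2 and 7.70 and 6.73 CPM for Mir6236. Whether the reads on these entries measure their own transcripts was not tested. Hist1h4m was 0.634 and 124 CPM in old KO and 312 and 387 CPM in sick KD. For none of the 6 genes did the KO-to-KD difference in the older mice differ from that in the young mice past the threshold (adjusted p between 0.390 and 0.961, edgeR, interaction in 8 mice), which 7.43% of all genes tested passed. Each group held 2 mice, and in Lars2 the old KO mice alone spanned 22.7 to 189 CPM.

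Chromosome 5, which holds Gfi1 and 3 of the 6 genes, had more genes with a low unadjusted p than the rest of the genome. On it, 46 of 886 genes (5.19%) had an unadjusted p under 0.05, against 348 of 13953 elsewhere (2.49%). The share was 8.19% (14 of 171) among other genes within 10 Mb of Gfi1 and 7.74% (12 of 155) between 10 and 20 Mb. Farther out it was 3.33% (9 of 270) between 20 and 40 Mb, 5.26% (4 of 76) between 40 and 60 Mb and 2.82% (6 of 213) beyond. With DESeq2 the share within 10 Mb was 3.63%, and 1.24% on other chromosomes. Without KD 1 it was 4.65%, and 2.26% on other chromosomes. Genes on 1 chromosome are not independent, and these shares are given as a description.

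**Figure D3:**
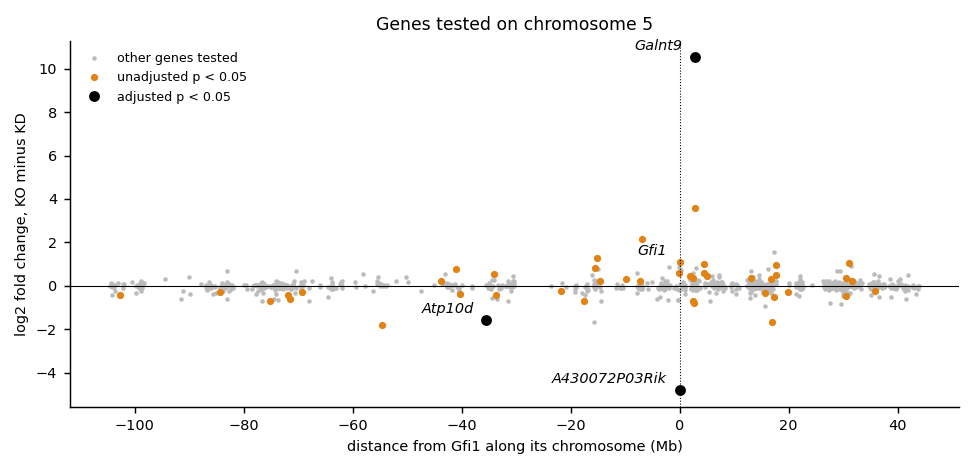
Log2 fold change of each gene tested on chromosome 5 (KO minus KD, vertical axis) by its distance from Gfi1 in Mb (horizontal axis, 0 at the dotted line). Genes with an unadjusted p under 0.05 (orange) made up 8.19% of the other genes within 10 Mb and 2.82% beyond 60 Mb, and the named black points passed the adjusted threshold.

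Of the 14 genes with an unadjusted p under 0.05 within 10 Mb, 11 were higher and 3 lower in KO. Among all genes tested, 169 were higher and 225 lower at this p. Crlf2, a receptor chain for the cytokine TSLP, was 41.6 and 42.3 CPM in KO and 29.3 and 31.1 CPM in KD. Rpap2, an RNA polymerase II-associated phosphatase and a near neighbour of Gfi1, was 20.3 and 18.7 CPM against 12.1 and 13.8 CPM. A630023P12Rik, at chr5:110514923-110525980 before Galnt9 and named here after its values were seen, was 0.769 and 1.003 CPM in KO and 0.102 and 0.0310 CPM in KD. Farther away, Cox18, a factor for assembly of cytochrome oxidase, was 8.38 and 8.65 CPM in KO and 13.5 and 14.2 CPM in KD. Apart from Galnt9 and A430072P03Rik, none of the genes within 20 Mb passed the adjusted threshold in the edgeR fit of all 4 young libraries with the filter on low counts. With no such filter, edgeR called Crlf2, Rpap2, Cox18 and A630023P12Rik among others (adjusted p between 8.57e-06 and 0.0161).

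The partners of Gfi1 were level between the genotypes. Apart from Gfi1, no member of the list of 12 had an unadjusted p under 0.05, and the list median was 0.02 on the log2 scale, against -0.01 over all genes tested. With 1 mouse left out it stayed between 0.00 and 0.06. Gfi1b, the close relative that can stand in for Gfi1, was 13.7 and 14.6 CPM in KO and 19.01 and 12.97 CPM in KD. Kdm1a, which encodes LSD1, was 82.0 and 83.5 CPM against 90.6 and 81.8 CPM, and Rcor2, a CoREST protein, was 3.33 and 4.201 CPM against 5.07 and 3.76 CPM.

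None of 16 genes known as targets of Gfi1 or as players in the choice between neutrophil and monocyte passed the threshold. Id2, an inhibitor of helix-loop-helix factors, was 48.2 and 47.4 CPM in KO and 59.9 and 57.8 CPM in KD (log2 fold change -0.30, SE 0.08). Cebpa, a factor needed for granulocyte progenitors, was 182 and 211 CPM in KO and 159 and 147 CPM in KD (log2 fold change 0.37, SE 0.10). Id1 was 32.5 and 26.7 CPM against 24.9 and 31.3 CPM, and Csf1, the monocyte growth factor, was 8.90 and 8.46 CPM against 7.85 and 9.19 CPM. Egr1 had the largest difference of the list, at 1.63 and 1.94 CPM in KO and 3.30 and 1.99 CPM in KD. Hoxa9, Meis1, Irf8, Spi1 and Elane had log2 fold changes between -0.14 and 0.13.

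**Figure D4:**
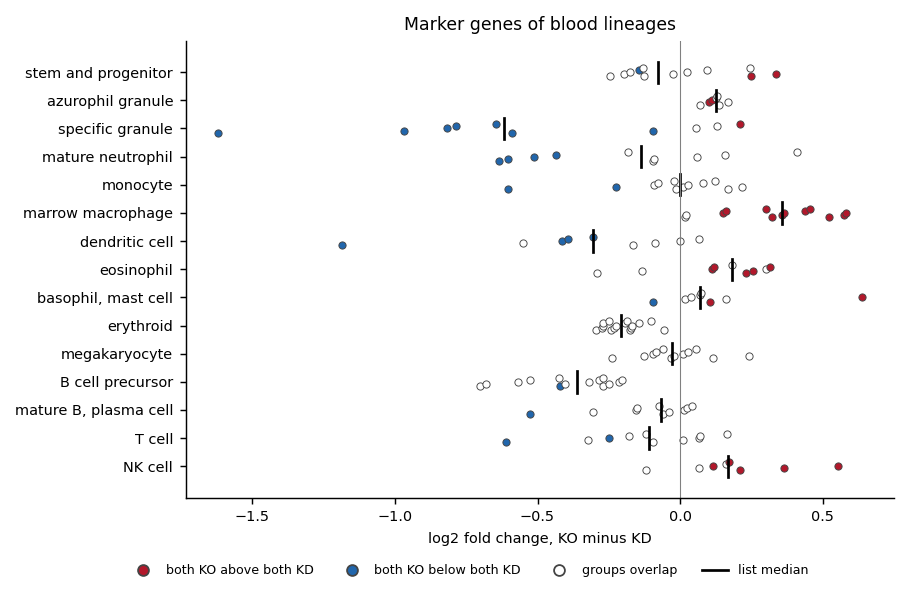
Log2 fold change (KO minus KD, horizontal axis) of the tested marker genes of 15 blood cell types or stages, 1 point a gene, with the list median as a black bar. Marrow macrophage markers lie to the right, specific granule markers mostly to the left, and erythroid and megakaryocyte markers overlap between the groups throughout.

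The lineage lists were read in BM as a whole, in which fewer cells of a type and less RNA per cell cannot be told apart. No marker of any lineage passed the adjusted threshold in edgeR with the filter on low counts. With no such filter, where 119 genes were called in all, some markers passed (adjusted p between 2.24e-05 and 0.0463, edgeR). Ltf, Ngp, Chil3, Retnlg, S100a8, S100a9, Nr4a1, Dntt, Ighm and Col1a2 were lower in KO, and Axl was higher. Azurophil granule genes differed little, with log2 fold changes between 0.07 and 0.17 over 7 genes and no unadjusted p under 0.05. Their median was 0.13 (0.01 without KO 1 and 0.03 without KD 1). Both KO mice lay above both KD mice in 2 of them, against 13.9% of all genes, and below in none. Mpo, the myeloperoxidase of these granules, was 2686 and 2535 CPM in KO and 2359 and 2507 CPM in KD. Elane, neutrophil elastase, was 705 and 599 CPM against 551 and 641 CPM, and Prtn3, proteinase 3, was 968 and 928 CPM against 855 and 901 CPM.

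Genes of the later granules lay lower in KO. Of 10 specific and gelatinase granule genes, 7 had both KO mice below both KD mice and 1 had them above, where 12.8% of all genes tested lay below and 13.9% above. An unadjusted p under 0.05 was found for 5 lower, against 1.52% of all genes, and 1 higher, against 1.14%. The median was -0.62. Ltf, lactoferrin, was 10.04 and 10.35 CPM in KO and 24.6 and 10.4 CPM in KD. Camp, the cathelicidin peptide, was 2.86 and 3.01 CPM against 7.83 and 3.63 CPM, and Ngp was 8.66 and 11.3 CPM against 22.3 and 12.6 CPM. In all 3 genes KD 2 lay close to the KO mice and KD 1 stood apart, and without KD 1 the list median was -0.20. Chil3 was 1569 and 1428 CPM in KO and 2617 and 1889 CPM in KD. Mmp9, a gelatinase, was 4.63 and 4.51 CPM against 7.60 and 6.70 CPM, whereas Mmp8, a collagenase, was 465 and 450 CPM against 373 and 418 CPM. Ly6g, a surface marker of mature granulocytes, was near the limit of counting at 0.140 and 0.219 CPM in KO and 0.563 and 0.528 CPM in KD.

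Of 10 genes of mature neutrophils, 4 had both KO mice below both KD mice, where 12.8% of all genes did, and none had them above. The median was -0.14, and it lay between -0.26 without KD 1 and -0.11 without KO 2. S100a9, a calcium-binding protein abundant in neutrophils, was 199 and 241 CPM in KO and 314 and 370 CPM in KD (log2 fold change -0.63, SE 0.13, adjusted p = 0.856, edgeR). DESeq2 called it (adjusted p = 0.00267). Its partner S100a8 was 399 and 455 CPM against 487 and 668 CPM, and Retnlg was 12.2 and 12.5 CPM against 20.6 and 16.8 CPM. The receptors did not follow. Cxcr2 was 5.38 and 5.74 CPM in KO and 4.32 and 5.65 CPM in KD, and Csf3r, the G-CSF receptor, was 147 and 143 CPM against 122 and 156 CPM.

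The stefin A genes, a cluster that encodes cystatin-type inhibitors of cysteine proteases and is used by granulocytes, were added as a list after their values were seen. Their levels were low, and the 6 summed to 1.77 and 1.47 CPM in KO and 5.19 and 6.24 CPM in KD. In Stfa1 the levels were 0.210 and 0.125 CPM in KO and 0.793 and 1.18 CPM in KD. In Stfa2l1 they were 0.116 and 0.0940 CPM against 0.512 and 0.931 CPM. All 6 had both KO mice below both KD mice, against 12.8% of all genes. All 6 also had an unadjusted p under 0.05, against 1.52% lower among all genes. None passed the adjusted threshold in edgeR with the filter on low counts. With no such filter, edgeR called Stfa1, Stfa2l1, Stfa3, BC100530 and Gm5483 (adjusted p between 0.000283 and 0.0464). Some members share sequence, with 330 of 710 stretches of 25 bases of Stfa1 (46.5%) also found in BC100530, so single members are uncertain.

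Monocyte genes were mostly level. Of 12, 10 overlapped between the groups, where 10871 of 14839 genes tested did. The other 2 had both KO mice below both KD mice, where 12.8% of all genes did. Both had an unadjusted p under 0.05, against 1.52% lower among all genes. The list median was -0.00, and it lay between -0.09 without KO 1 and 0.12 without KO 2. Ly6c2, the marker of inflammatory monocytes, was 1154 and 1050 CPM in KO and 961 and 1065 CPM in KD. Ccr2, their chemokine receptor, was 2596 and 2110 CPM against 2012 and 2665 CPM, and Csf1r was 655 and 664 CPM against 669 and 662 CPM. Among the exceptions, Nr4a1, a nuclear receptor of nonclassical monocytes, was 16.3 and 13.9 CPM in KO and 22.1 and 24.0 CPM in KD, with an adjusted p of 0.822 (edgeR). The second was Fn1, fibronectin, at 1438 and 1414 CPM against 1630 and 1703 CPM.

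Several other genes of nonclassical monocytes and myeloid surfaces were among the 10 with the lowest p that were lower in KO. Ace, angiotensin-converting enzyme, was 9.20 and 8.28 CPM in KO and 16.7 and 21.9 CPM in KD. Its log2 fold change was -1.14 (SE 0.16, adjusted p = 0.478, edgeR, and 3.90e-05 in DESeq2). Fpr1, the formyl peptide receptor of phagocytes, was 9.36 and 8.53 CPM against 15.7 and 17.7 CPM. S1pr5, a sphingosine phosphate receptor, was 8.15 and 8.97 CPM against 14.2 and 13.8 CPM. Kmt2d, a histone methyltransferase, and Polr2a, the large subunit of RNA polymerase II, had log2 fold changes of -0.42 and -0.38. Xlr, an X-linked lymphocyte gene, was 0.0466 and 0.282 CPM in KO and 2.28 and 4.998 CPM in KD, a log2 fold change of -4.55 (adjusted p = 0.633, edgeR). DESeq2 called Xlr, Ace, Fpr1, S1pr5 and Kmt2d (adjusted p between 7.84e-07 and 0.0498).

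Marrow macrophage genes lay higher in KO. Of 13 genes, 11 had both KO mice above both KD mice, where 13.9% of all genes tested did, and none had them below. An unadjusted p under 0.05 was found for 7, all higher, against 1.14% of all genes, and the median was 0.36. Vcam1, an adhesion molecule of marrow macrophages, was 71.9 and 72.6 CPM in KO and 51.2 and 61.2 CPM in KD. C1qa, a complement chain, was 18.3 and 17.3 CPM against 12.3 and 13.7 CPM, and C1qb was 19.5 and 17.1 CPM against 12.5 and 16.2 CPM. Axl, a receptor for dying cells, was 42.0 and 46.3 CPM against 31.1 and 34.1 CPM. Cd163, the hemoglobin scavenger receptor, was 13.6 and 10.4 CPM against 9.31 and 6.74 CPM, and Mertk was 6.31 and 6.96 CPM against 3.68 and 5.25 CPM. Each difference was small, and the broad marker Adgre1 (F4/80) did not share it, at 164 and 140 CPM in KO and 130 and 171 CPM in KD. Without KD 1 the list median was 0.24.

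The 10 genes with the lowest p that were higher in KO held further genes of macrophages. Trem2, a lipid receptor of macrophages, was 42.2 and 40.3 CPM in KO and 26.8 and 28.8 CPM in KD (log2 fold change 0.57, SE 0.09, adjusted p = 0.587, edgeR). Fcgr1, the high-affinity IgG receptor, was 98.9 and 117 CPM against 65.1 and 78.4 CPM. Fcna, a ficolin of the lectin pathway, was 23.8 and 21.8 CPM against 12.6 and 15.5 CPM. DESeq2 called these 3 (adjusted p between 0.00448 and 0.0321). Ptgfrn was 56.7 and 62.7 CPM against 34.7 and 41.7 CPM. Wdfy1 was 70.5 and 38.3 CPM against 17.1 and 19.8 CPM, so its KO mice were apart from KD but also far from each other.

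**Figure D5:**
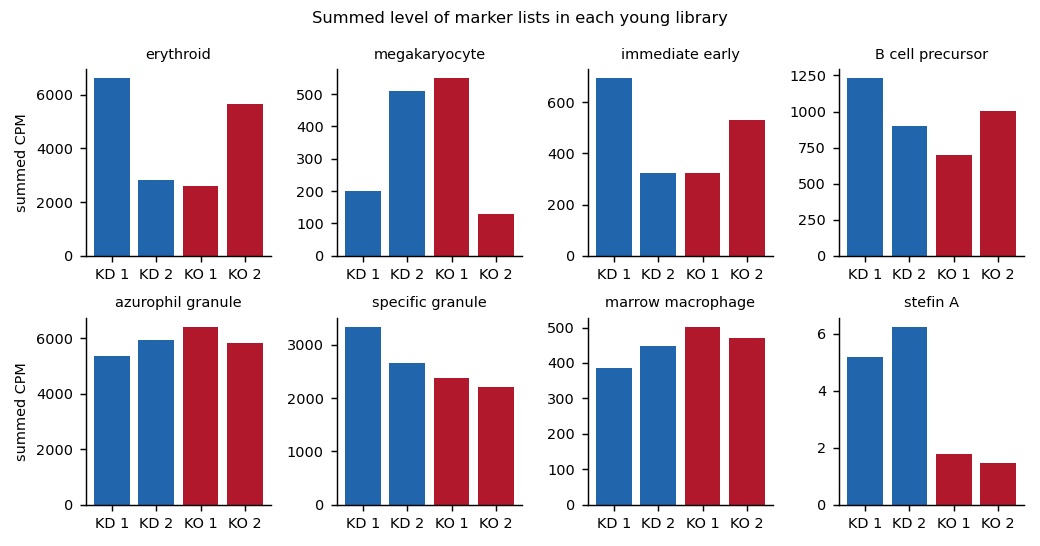
Summed CPM of 8 marker lists in each young library (blue KD, red KO, bars from 0). Erythroid and immediate early sums are high in KD 1 and KO 2, the megakaryocyte sum is high in KD 2 and KO 1, and stefin A is lower in both KO mice.

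Erythroid and megakaryocyte genes varied widely, but within each genotype. The 16 erythroid genes summed to 6618 and 2819 CPM in the KD libraries and 2610 and 5640 CPM in the KO libraries, and none of them separated the groups. Slc4a1, the anion exchanger of red cells, was 836 and 385 CPM in KD and 358 and 724 CPM in KO. Alas2, the erythroid heme enzyme, was 253 and 95.3 CPM against 89.5 and 222 CPM. The 12 megakaryocyte and platelet genes ran the other way, with sums of 199 and 509 CPM in KD and 549 and 131 CPM in KO. Pf4, platelet factor 4, was 15.3 and 36.4 CPM in KD and 34.4 and 8.97 CPM in KO. Ppbp was 34.6 and 98.0 CPM against 108 and 15.2 CPM. The median log2 fold change of the list was -0.03, and it was -1.56 without KO 1 and 0.88 without KD 2.

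The same division ran through the immediate early genes, which many cells switch on within minutes of disturbance. Fos was 219 and 43.9 CPM in KD and 48.5 and 158 CPM in KO, and Dusp1 was 90.7 and 15.1 CPM against 16.3 and 60.1 CPM. KD 1 and KO 2 were thus high in erythroid and immediate early genes and low in megakaryocyte genes, and KD 2 and KO 1 the reverse. For the erythroid and megakaryocyte lists the 2 mice of a group differed by more than the groups did. The median half-width of the 95% interval was 1.02 for erythroid and 1.88 for megakaryocyte genes. Of 11 immediate early genes, 4 had both KO mice below both KD mice, against 12.8% of all genes, and none had them above. An unadjusted p under 0.05 was found for 1, lower in KO, against 1.52% of all genes. Their median was -0.35, and it lay between -0.54 and 0.01 with 1 mouse left out. What set the division of the 4 mice was not tested.

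In the other myeloid lists, no gene passed the adjusted threshold. Of 9 eosinophil genes, 5 had both KO mice above both KD mice, against 13.9% of all genes, and 2 had an unadjusted p under 0.05, both higher, against 1.14%. Of these, Prg2, major basic protein, was 322 and 334 CPM in KO and 261 and 266 CPM in KD. Epx, eosinophil peroxidase, was 104 and 117 CPM against 90.7 and 94.4 CPM. Of 8 basophil and mast cell genes, 5 overlapped, where 10871 of 14839 genes tested did. Fcer1a, a chain of the IgE receptor, was 14.1 and 9.50 CPM in KO and 7.29 and 7.92 CPM in KD. In the dendritic cell list of 9, 4 genes had both KO mice below both KD mice, against 12.8% of all genes, and 2 had an unadjusted p under 0.05, both lower, against 1.52%. Siglech, a marker of plasmacytoid cells, was 12.3 and 13.4 CPM in KO and 18.57 and 15.02 CPM in KD. Cd209d had a log2 fold change of -1.18, and the list median was -0.31, between -0.36 and -0.20 with 1 mouse left out. The 12 stem and progenitor genes had no unadjusted p under 0.05 and a median of -0.08, which was -0.15 without KO 1 and 0.15 without KO 2. Kit was 47.6 and 37.5 CPM in KO and 38.3 and 48.5 CPM in KD, and Cd34 was 143 and 113 CPM against 95.4 and 121 CPM.

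B cell precursor genes overlapped between the groups in 13 of 14, where 10871 of 14839 genes tested did. All 14 had a negative log2 fold change, between -0.70 and -0.20, with a median of -0.36. Rag1, the recombinase, was 135 and 257 CPM in KO and 302 and 186 CPM in KD, and Dntt, terminal transferase, was 34.8 and 56.8 CPM against 99.4 and 46.7 CPM. Rag2 was 9.13 and 14.1 CPM against 20.7 and 13.6 CPM. The exception was Ebf1, a factor that sets the B lineage, at 59.8 and 86.5 CPM in KO and 96.6 and 99.1 CPM in KD. KD 1 was highest in most of these genes, and the median moved between -0.64 and -0.10 with 1 mouse left out, being -0.10 without KD 1, -0.16 without KO 1 and -0.64 without KO 2. Surface markers of mature B cells were level, with Ms4a1 (CD20) at 99.7 and 119 CPM in KO and 120 and 96.3 CPM in KD.

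Immunoglobulin V genes, of which each B cell clone uses its own, had a low unadjusted p more often than other genes. It was under 0.05 in 36 of 147 tested (24.5%), of which 22 were higher and 14 lower in KO, against 2.36% of protein-coding genes. Among constant regions, a list added after its values were seen, Ighm was 885 and 995 CPM in KO and 1313 and 1396 CPM in KD (log2 fold change -0.53, SE 0.09, adjusted p = 0.747, edgeR). The IgG genes lay the other way. Ighg1 was 107 and 61.7 CPM in KO and 7.04 and 17.9 CPM in KD, Ighg2b was 244 and 221 CPM against 43.8 and 79.9 CPM, and Ighg2c was 96.8 and 182 CPM against 41.9 and 61.7 CPM. Both KO mice thus held more IgG and less IgM transcript than both KD mice. The shared light chain gene Igkc was 206 and 211 CPM against 172 and 226 CPM, and plasma cell markers did not follow, with Jchain at 84.9 and 106 CPM against 89.6 and 146 CPM. None of these passed in edgeR with the filter on low counts, whereas DESeq2 called Ighm, Ighg2b and Ighg3 (adjusted p between 0.000286 and 0.0348). With no filter on low counts, edgeR called Ighm, Ighg1, Ighg2b, Ighg2c, Ighg3 and Igha (adjusted p between 1.92e-19 and 0.000386).

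T cell genes were sparse and level, with no unadjusted p under 0.05 among 10 genes and a median of -0.11, which was -0.23 without KO 1 and 0.10 without KO 2. Cd3d was 2.10 and 1.54 CPM in KO and 1.89 and 2.08 CPM in KD, and Cd3g was 3.33 and 1.94 CPM against 2.63 and 3.38 CPM. In the list of 8 NK cell genes, 5 had both KO mice above both KD mice, against 13.9% of all genes. An unadjusted p under 0.05 was found for 2, both higher, against 1.14%. The granzymes Gzma and Gzmb were 25.5 and 22.4 CPM and 7.64 and 7.40 CPM in KO, against 17.8 and 19.6 CPM and 4.605 and 5.65 CPM in KD. The receptor Ncr1, which defines NK cells, was 6.31 and 5.05 CPM in KO and 5.78 and 6.58 CPM in KD, so the lean did not extend to it. The 12 stromal, bone and endothelial genes had a median of -0.21, which was -0.58 without KO 1 and 0.08 without KO 2, and KO 2 was lowest in most of them, with Col1a1 at 66.3 and 26.5 CPM in KO and 39.1 and 69.9 CPM in KD.

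Of the lists for pathways that are often altered in leukemia, no gene passed the adjusted threshold in edgeR with the filter on low counts. None of the 15 genes of cell division had an unadjusted p under 0.05. Their median was 0.05, with Mki67 at 1882 and 2112 CPM in KO and 1991 and 1929 CPM in KD. Top2a, the topoisomerase of dividing cells, was 1654 and 1757 CPM against 1645 and 1602 CPM, and 6 of the 15 genes had both KO mice above both KD mice, against 13.9% of all genes. Of 17 p53 target genes tested, 1 had an unadjusted p under 0.05, higher in KO, where 1.14% of all genes did. It was the death receptor gene Tnfrsf10b, at 1.26 and 1.10 CPM in KO and 0.691 and 0.776 CPM in KD. Cdkn1a (p21) was 4.38 and 5.08 CPM against 4.48 and 3.88 CPM, Bbc3 (Puma) was 5.57 and 4.67 CPM against 5.50 and 5.21 CPM, and Pmaip1 (Noxa) was 12.4 and 15.5 CPM against 19.6 and 11.4 CPM. The list median was -0.13, but -0.00 without KO 1, -0.02 without KD 1 and -0.22 without KD 2, and the median half-width of its 95% intervals was 0.39.

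The BCL2 family gave no unadjusted p under 0.05 among 12 genes, with log2 fold changes between -0.44 for Bok and 0.16 for Bak1. Bcl2 was 27.4 and 27.0 CPM in KO and 27.2 and 25.1 CPM in KD, and Mcl1 was 674 and 765 CPM against 784 and 685 CPM. None of 17 genes of oxidant production and defence did either. Cybb, the catalytic subunit of the phagocyte oxidase, was 1661 and 1588 CPM in KO and 1616 and 1790 CPM in KD, and the range of log2 fold changes was -0.14 to 0.17. The 14 interferon-response genes had a median of 0.08 (-0.03 without KD 1 and 0.29 without KD 2), with Ifit1 at 8.22 and 7.74 CPM against 5.76 and 8.10 CPM. Of 11 genes of inflammation tested, Tnfaip3 alone had an unadjusted p under 0.05, lower in KO, against 1.52% of all genes. Tnfaip3, a brake on NF-kB, was 34.8 and 34.4 CPM in KO and 42.5 and 39.5 CPM in KD. Tnf was 8.55 and 6.49 CPM against 5.70 and 8.32 CPM. The 7 genes of antigen presentation by MHC class II had a median of 0.06, which was -0.40 without KO 1 and 0.32 without KO 2, with H2-Aa at 117 and 63.8 CPM in KO and 77.3 and 95.7 CPM in KD.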

How the data were processed

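Total RNA from whole BM was made into poly(A) libraries with a stranded kit (TruSeq Stranded mRNA) and sequenced in pairs of reads. The deposited values are raw read counts per gene and library, which the authors made with HTSeq. The submitters' processing notes name TopHat2 2.0.10, SAMtools, HTSeq and DESeq and the builds GRCm38 and mm10, and the strand setting of the counting is not given in the sources used here.

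The 5 tally lines of HTSeq were left out of library sizes and tests, and reads on no annotated gene were 26.9% to 33.8% of all reads on genes, on none or on several in the young libraries. The young libraries were scaled by TMM, low genes were removed with filterByExpr, and KO was compared with KD by the quasi-likelihood test of edgeR 4.0.16 in R 4.3.3, without covariates, with Benjamini-Hochberg adjustment over 14839 genes. Standard errors, intervals and p-values rest on the spread between 2 mice a group, which the fit moderates for each gene with the spread of other genes. Intervals called counting intervals cover counting error only. Genes in the older mice were tested by an interaction term in all 8 libraries. DESeq2 1.42.0 (Wald test), other scalings, filters, a GC and length correction, all 8 mice in 1 fit and leaving out each mouse in turn were the alternatives. The scripts were tested on simulated data.

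The members and gene lists were chosen with earlier results of these data known. Genes are named if they passed the threshold, if they are among the first 3 tested or the 2 most different members of a list, or if they are among the 10 protein-coding genes in each direction with the lowest p that did not pass. In text on a list, a few further members are named, and they were chosen after their values were seen. Lists get no set test and are described by counts and medians. Sequences are from RefSeq tables on GRCm38.p6. The promoter table held 5 of the genes and no entry for Atp10d or A430072P03Rik. A few genes that the rule names are not reported here.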

Additional observations from a re-analysis of the deposited data

Results flagged for a closer look

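The called genes and the genes named for the lowest p that did not pass in young BM, Gfi1 among them, were examined in all 8 mice. For 8 of those reported here the KO-to-KD difference in the older mice differed from that in the young mice past the threshold (edgeR's quasi-likelihood interaction test, Benjamini-Hochberg adjusted p between 0.00769 and 0.0463), where 7.43% of all genes tested did. The genes were picked for their young difference, which enters this test. Disease and age go with genotype in the older mice, and their part was not tested. Values are in CPM scaled over all 8 libraries, and each difference of differences is on the log2 scale, older minus young.

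The macrophage genes among those flagged, Fcna, Axl and Trem2, went different ways. Fcna was 26.4 and 24.8 CPM in old KO and 4.36 and 3.91 CPM in sick KD, a difference larger by 1.92 than in young mice. Axl was 48.4 and 50.2 CPM against 14.5 and 11.3 CPM, larger by 1.5. Trem2 was 28.8 and 38.4 CPM against 43.4 and 37.8 CPM, with a change of -0.844. In the marrow macrophage list, which holds Axl but not Fcna or Trem2, all 13 genes had a larger difference in the older mice. The difference of differences ran from 0.0864 for Hmox1 to 2.65 for Cd5l.

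Kmt2d and Polr2a, both of the transcription machinery, were lower in old KO than in sick KD by more than in the young mice. Kmt2d was 94.7 and 75.6 CPM in old KO and 256 and 256 CPM in sick KD (-1.18), and Polr2a was 59.3 and 56.6 CPM against 168 and 162 CPM (-1.13).

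S100a9 was 37.7 and 65.7 CPM in old KO and 1111 and 285 CPM in sick KD (-3.12), so the sick mice were far from each other. Wdfy1 was 19.2 and 14.5 CPM against 22.2 and 16.2 CPM (-1.76). Xlr was below 0.5 CPM in all 4 older mice, and its young difference had no counterpart there (4.79).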

How the results depend on the processing

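The count of 6 genes was 29 with DESeq2, 119 with no filter on low counts and 3 with all 8 mice in 1 fit (Galnt9, Atp10d and A430072P03Rik). With 1 mouse left out it ranged from 2 to 8, and it was 2 without KO 1. Galnt9 and A430072P03Rik were called in each of these 4 fits. Hist1h4m and Mir6236 lost the call whichever mouse was left out, Mir6236 also with the GC and length trend removed (adjusted p = 0.0524), and with all 8 mice in 1 fit they and Lars2 had an adjusted p that rounds to 1 (edgeR). Lars2 (adjusted p = 0.0527) and Atp10d (0.0956) also lost it without KO 1. Galnt9 could not be tested where 10 counts were required in every mouse. The number of list members past the threshold was 2, and it was 5 with DESeq2, 1 with the filter of 10 counts in every mouse and 1 to 2 with 1 mouse left out. The share of genes with a low p within 10 Mb of Gfi1 was 8.19%, against 2.49% on other chromosomes. It was 3.63% with DESeq2, against 1.24%, and 4.65% without KD 1, against 2.26%. DESeq2 also called 0 of the 6 genes in the interaction with the older mice. Where a call moved, the cause was not tested. The values under alternatives were counted for the called genes, Gfi1 and the genes with the lowest p that did not pass. List members with an unadjusted p under 0.05 were counted as well. Of these values, 407 kept direction and call, 51 passed the threshold newly, 14 no longer passed, and none changed direction. These genes were picked for a difference between the groups, so a change of direction was unlikely. Other named genes were not counted. No paired analysis was possible because the labels give the mice no replicate numbers shared between the groups. With 2 mice a group, the exact permutation test cannot go below p = 0.333, and 98.7% of the genes above 10 CPM had intervals within 1 log2 unit of 0, so smaller differences and scarce transcripts are where the data are least able to separate the genotypes.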
